A study of Mus musculus with 12 samples.

Results

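The cerebellins (*Cbln1* to *Cbln4*), the neurexins *Nrxn2* and *Nrxn3* and the delta glutamate receptor gene *Grid1* were examined in the cerebellum and the hippocampus of *En2*-/- mice. These 7 genes were represented by 14 of the 41174 distinct probes on the array, chosen by the gene name in the annotation of the cerebellum arrays. RNA from whole cerebella and whole hippocampi of 3 WT (En2WT) and 3 *En2*-/- (En2KO) littermates from heterozygous matings was hybridised to 12 one-colour Agilent arrays, 3 for each tissue and genotype. The mice were 3 to 5 months old and of both sexes, and they came from a mixed 129Sv x C57BL/6 and outbred stock crossed at least 5 times to C57BL/6. The mutation removes the homeobox of *En2* from every cell, not from a chosen cell type, and a residual transcript remains. The sources used here do not say whether the cerebellum and hippocampus arrays with the same number came from the same mouse.

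Cerebellins are secreted proteins of the C1q family that organise synapses. In the cerebellum, Cbln1 is released from the parallel fibres of granule cells and joins presynaptic neurexins to postsynaptic delta glutamate receptors. Neurexins are presynaptic adhesion molecules, made in long and short forms from separate promoters and spliced at several sites, and *Grid1* encodes GluD1, the delta receptor best known from the forebrain. Cbln3 is made by granule cells and depends on Cbln1 for its secretion.

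The sequences of neurexin, *Cbln1* and *Grid1* probes are shown so that the probes of 1 gene can be told apart. Their positions are in mm9 as the files give them, and each probe is 60 bases long. The *Nrxn3* probe A_52_P218458 lies at chr12:90749150-90750418 on the plus strand. Its 60 bases span 1269 bases of genome, so it is aligned across a gap. The other *Nrxn3* probe, A_52_P39644, lies 820366 bases further along at chr12:91570785-91570844. The *Nrxn2* probes A_51_P431831 (chr19:6532012-6532071) and A_51_P431827 (chr19:6532047-6532106) share 25 bases, written in capitals, and are therefore not independent measurements. The *Cbln1* probe A_52_P454531 lies at chr8:89995643-89995702 on the minus strand, and the *Grid1* probe A_52_P527834 spans chr14:36334025-36375694 on the plus strand, also across a gap. Whether a probe lies in an exon of a given isoform or in an untranslated region was not annotated here.
Nrxn3 A_52_P218458: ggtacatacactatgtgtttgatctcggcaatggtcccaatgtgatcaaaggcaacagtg
Nrxn3 A_52_P39644: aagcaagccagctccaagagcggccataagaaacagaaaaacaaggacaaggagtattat
Nrxn2 A_51_P431831: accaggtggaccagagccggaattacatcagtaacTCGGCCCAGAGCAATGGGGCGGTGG
Nrxn2 A_51_P431827: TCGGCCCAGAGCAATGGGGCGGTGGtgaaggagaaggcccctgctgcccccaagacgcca
Cbln1 A_52_P454531: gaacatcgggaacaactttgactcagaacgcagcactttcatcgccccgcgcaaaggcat
Grid1 A_52_P527834: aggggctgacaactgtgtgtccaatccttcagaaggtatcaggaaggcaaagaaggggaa

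The second *Cbln1* probe, A_51_P307721, lies at chr8:89993362-89993421 and the second *Grid1* probe, A_51_P496735, at chr14:36396072-36396131. The latter carried the name AK039103 in the older annotation of the hippocampus arrays. Of the 3 *Cbln2* probes on chromosome 18, A_52_P233701 and A_52_P233703 overlap by 20 bases. The *Cbln3* probes A_51_P273888 and A_52_P246189 are 2335 bases apart on chromosome 14, and *Cbln4* has a single probe, A_52_P432245, on chromosome 2. Between probes of different members the longest identical run was 8 bases, over 83 pairs.

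Each array held 43379 spots other than controls, of which between 62.3% and 73.0% were well above background, and 0 spots were saturated. Values are log2 intensities, quantile normalized over the 12 arrays, and are comparable between arrays for 1 probe but not between probes. Differences were tested for every probe on the array with limma (Benjamini-Hochberg adjusted p under 0.05), and KO against WT also with the rank product at the study's limits on the uncorrected P, 0.01 for cerebellum and 0.005 for hippocampus. The *En2* probe, in a part of the gene that is not deleted and so no check of the knockout, gave a KO minus WT difference of 0.31 in cerebellum (limma adjusted p = 0.861) and -0.23 in hippocampus (limma adjusted p = 0.743). Markers went with the tissue labels, with 8 of 8 granule neuron markers higher in WT cerebellum and 7 of 8 hippocampal neuron markers higher in WT hippocampus by limma. Every slide held 1 array of each group, always at the same position for a group, so position on the slide and group cannot be told apart.

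*Cbln1* and *Cbln3* set the cerebellum apart from the hippocampus in both genotypes, while *Cbln2*, *Cbln4* and *Nrxn2* had no difference past the threshold. In WT mice 6 of the 14 probes passed, 4 higher in the cerebellum and 2 lower, where 27.7% of all probes tested passed. In *En2*-/- mice 5 of 14 passed, each higher in the cerebellum, against 24.1% of all probes. Of these, both *Cbln3* probes and *Cbln1* A_52_P454531 entered the test through their high cerebellum values alone. Among the 11 probes well above background on every array compared, 3 passed in WT mice against 25.6% of all such probes, and 2 in *En2*-/- mice against 21.9%. The tissues did not overlap for those 6 probes in WT mice (41.9% of all probes) nor for those 5 in *En2*-/- mice (43.3% of all probes). The probes that differed were those of *Cbln1*, *Cbln3*, 1 of 2 *Nrxn3* probes in each genotype and 1 of 2 *Grid1* probes in WT mice. In whole tissue, fewer cells of a type and less RNA per cell cannot be told apart.

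*Cbln1* differed between the tissues with both of its probes. Probe A_51_P307721 read 16.97, 16.65 and 17.17 in WT cerebellum and 9.09, 9.81 and 10.13 in WT hippocampus. In *En2*-/- mice it read 16.50, 16.53 and 16.70 in cerebellum and 10.16, 11.21 and 10.95 in hippocampus. The tissues did not overlap in either genotype. The log2 difference between cerebellum and hippocampus was 7.25 (SE 0.31, limma adjusted p = 1.99e-08) in WT mice, or 152-fold (95% interval 95.4 to 243). The *En2*-/- difference was 5.80 (SE 0.31, limma adjusted p = 1.49e-07), or 55.8-fold (35.0 to 89.1). Probe A_52_P454531 gave log2 differences of 7.27 (limma adjusted p = 2.88e-08) and 6.04 (limma adjusted p = 1.63e-07). These are 155-fold and 65.7-fold, and in the hippocampus they rest on a probe that was well above background on 2 of 3 arrays of each genotype. With normexp background correction, which adds an offset of 50 to the signal, the log2 differences of this dim probe were 5.58 and 4.63, and those of A_51_P307721 were 7.20 and 5.82.

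*Cbln3*, the granule cell partner of Cbln1, was detected in the cerebellum alone. Probe A_52_P246189 read 11.65, 11.68 and 11.62 in WT cerebellum and averaged 11.36 ± 0.57 (SD, n = 3) in *En2*-/- cerebellum, where its lowest array was at 10.88. Probe A_51_P273888 read 10.75, 10.37 and 9.83 in WT cerebellum and 9.55, 10.27 and 9.97 in *En2*-/- cerebellum. In the hippocampus both probes were well above background on 0 of 3 arrays of each genotype. Each fold is therefore a bound, taken against the dimmest signal that still counted as well above background on a hippocampus array, or against the probe itself where that was brighter. A_52_P246189 was at least 149-fold higher in the cerebellum in WT mice and at least 100.1-fold higher in *En2*-/- mice. The bounds for A_51_P273888 were at least 59.0-fold and at least 37.0-fold. These bounds hold for the processed signal used here, as log2 differences of 7.22 and 6.64 for A_52_P246189 and of 5.88 and 5.21 for A_51_P273888. With the normexp offset the measured log2 differences were below them, at 5.64 and 5.25 and at 4.45 and 4.07.

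**Figure D1:**
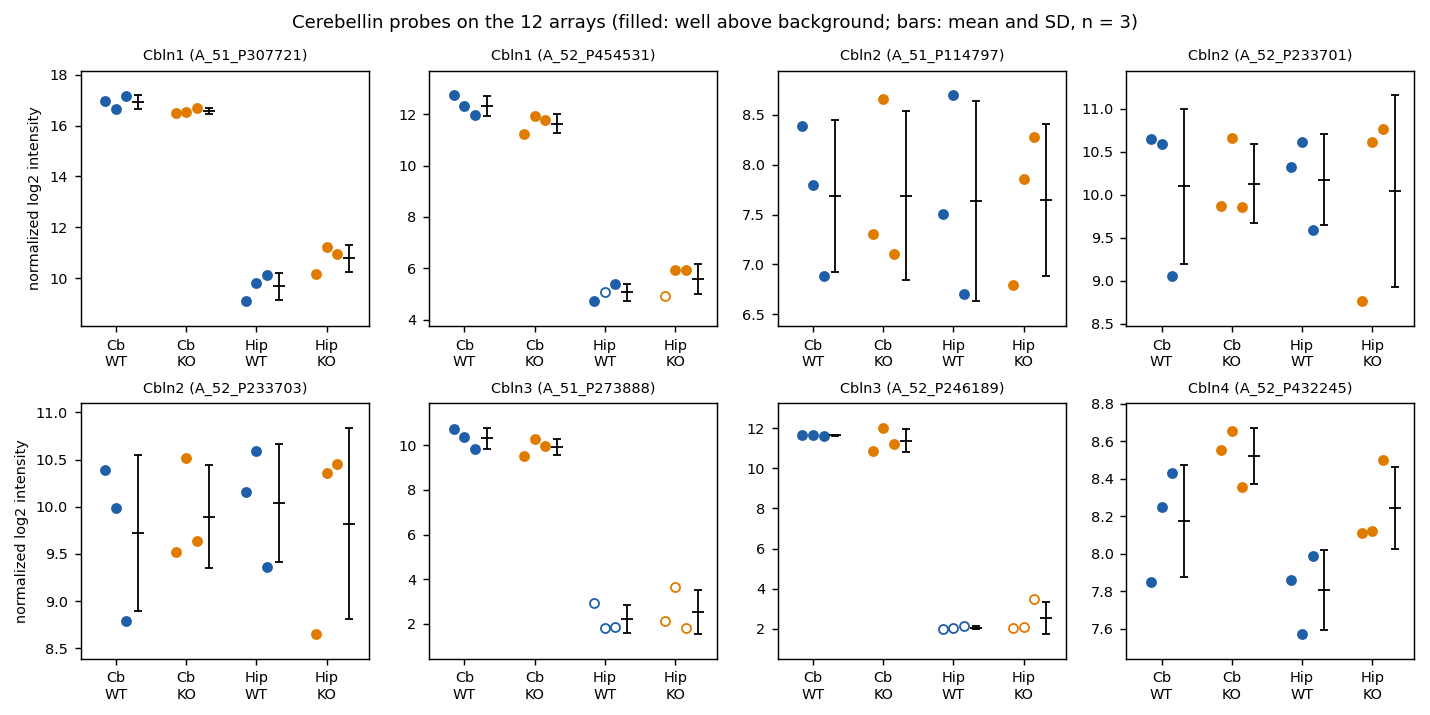
Normalized log2 intensity of the 8 cerebellin probes on each array, by tissue (Cb, cerebellum; Hip, hippocampus) and genotype, with the mean and SD of 3 arrays beside the points; open points are arrays on which the probe was not well above background, and each panel has its own scale. *Cbln1* and *Cbln3* separate the tissues, and the 3 *Cbln2* probes overlap in every group.

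*Cbln2* and *Cbln4* were well above background on every array of both tissues. The *Cbln2* probe A_52_P233701 read 10.65, 10.59 and 9.05 in WT cerebellum and 10.32, 10.61 and 9.59 in WT hippocampus. It read 9.87, 10.66 and 9.86 in *En2*-/- cerebellum and 8.76, 10.61 and 10.76 in *En2*-/- hippocampus. The 4 groups overlapped, with 1 low array in WT cerebellum and 1 in *En2*-/- hippocampus. Over the 3 *Cbln2* probes the log2 region differences lay between -0.32 and 0.09, and the 95% interval of A_52_P233701 in WT mice ran from -1.29 to 1.14. The spread was shared between probes, since A_52_P233701 and the non-overlapping A_51_P114797 correlated over the 12 arrays (Pearson r = 0.87, a description). *Cbln4* was closer between arrays, with means of 8.18 ± 0.30 in WT cerebellum, 8.52 ± 0.15 in *En2*-/- cerebellum, 7.81 ± 0.21 in WT hippocampus and 8.24 ± 0.22 in *En2*-/- hippocampus (SD, n = 3). Its region difference was 0.37 in WT mice (95% interval -0.09 to 0.82, limma adjusted p = 0.214) and 0.28 in *En2*-/- mice (-0.18 to 0.73, limma adjusted p = 0.374).

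The *Nrxn3* probes gave region calls in different genotypes, but the test of the difference between the probes did not pass. Probe A_52_P218458 read 6.87, 6.83 and 6.02 in WT cerebellum and 7.81, 7.34 and 7.74 in WT hippocampus, without overlap. The cerebellum minus hippocampus difference was -1.06 (SE 0.35, limma adjusted p = 0.0436), and -0.64 with normexp. Within slides it was -0.94, -0.51 and -1.72. This call was lost without any 1 of the 6 WT arrays, with 75th percentile scaling and with no filter on dim probes, where the limma adjusted p lay between 0.0530 and 0.139. In *En2*-/- mice the same probe differed by 0.14 (95% interval -0.63 to 0.91, limma adjusted p = 0.812). Probe A_52_P39644 read 9.40, 10.24 and 10.86 in WT cerebellum and 10.18, 9.95 and 10.64 in WT hippocampus, which overlapped. The *En2*-/- values were 10.71, 10.86 and 11.64 in cerebellum and 9.51, 10.19 and 9.18 in hippocampus, without overlap. Its region difference was -0.09 in WT mice (95% interval -0.95 to 0.77, limma adjusted p = 0.889) and 1.44 in *En2*-/- mice (SE 0.39, limma adjusted p = 0.0191). Without *En2*-/- cerebellum array 3, *En2*-/- hippocampus array 1 or *En2*-/- hippocampus array 3 the latter was 1.16, 1.38 and 1.22, with limma adjusted p of 0.0853, 0.0501 and 0.0798.

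Within an array, the difference between A_52_P39644 and A_52_P218458 averaged 4.01 ± 0.96 on the 6 cerebellum arrays and 2.87 ± 0.54 on the 6 hippocampus arrays. The cerebellum exceeded the hippocampus by 1.13 in this difference (two-sided exact permutation test, p = 0.0368; adjusted p = 0.166 over 9 tests of *Nrxn2*, *Nrxn3* and *Grid1* probe pairs). Over the 12 arrays the *Nrxn3* probes correlated with Pearson r = -0.0031, as a description, with r = -0.26 over the 6 cerebellum arrays and 0.69 over the 6 hippocampus arrays.

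*Nrxn2* had no region difference past the threshold with either probe. Probe A_51_P431827 had means of 12.84 ± 0.44 in WT cerebellum, 12.70 ± 0.16 in *En2*-/- cerebellum, 12.98 ± 0.69 in WT hippocampus and 12.52 ± 0.57 in *En2*-/- hippocampus (SD, n = 3). All 4 groups overlapped. Its region difference was -0.14 in WT mice (95% interval -0.94 to 0.67) and 0.18 in *En2*-/- mice (-0.63 to 0.99). The overlapping probe A_51_P431831 gave -0.32 (-1.11 to 0.46) and 0.40 (-0.38 to 1.19), and the probes correlated over the 12 arrays with Pearson r = 0.96.

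*Grid1* differed between the regions of WT mice with 1 of its probes. Probe A_52_P527834 read 6.21, 5.85 and 5.53 in WT cerebellum and 7.63, 7.16 and 6.72 in WT hippocampus. The groups did not overlap, and the cerebellum minus hippocampus difference was -1.31 (SE 0.31, limma adjusted p = 0.00850), or 2.48-fold higher in the hippocampus. It was -0.82 with normexp (limma adjusted p = 0.00543), and -1.41, -1.31 and -1.19 within slides. In *En2*-/- mice, at 5.28, 6.45 and 5.70 in cerebellum and 6.09, 6.22 and 6.30 in hippocampus, the groups overlapped and the difference was -0.39 (95% interval -1.08 to 0.29, limma adjusted p = 0.402). Probe A_51_P496735, 20377 bases further along, gave 0.32 in WT mice (95% interval -0.96 to 1.59) and 1.07 in *En2*-/- mice (-0.21 to 2.34). The within-array difference between A_52_P527834 and A_51_P496735 was -1.31 ± 0.58 on the 6 cerebellum arrays and 0.23 ± 0.79 on the 6 hippocampus arrays (two-sided exact permutation test, p = 0.00216, the smallest that 6 against 6 allows; adjusted p = 0.0195 over the 9 tests). This exact test, like that of the *Nrxn3* probes, pooled the genotypes, left the slide out and took the arrays as independent. Within each tissue the *Grid1* probes correlated with Pearson r = 0.72 over 6 arrays, as a description.

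**Figure D2:**
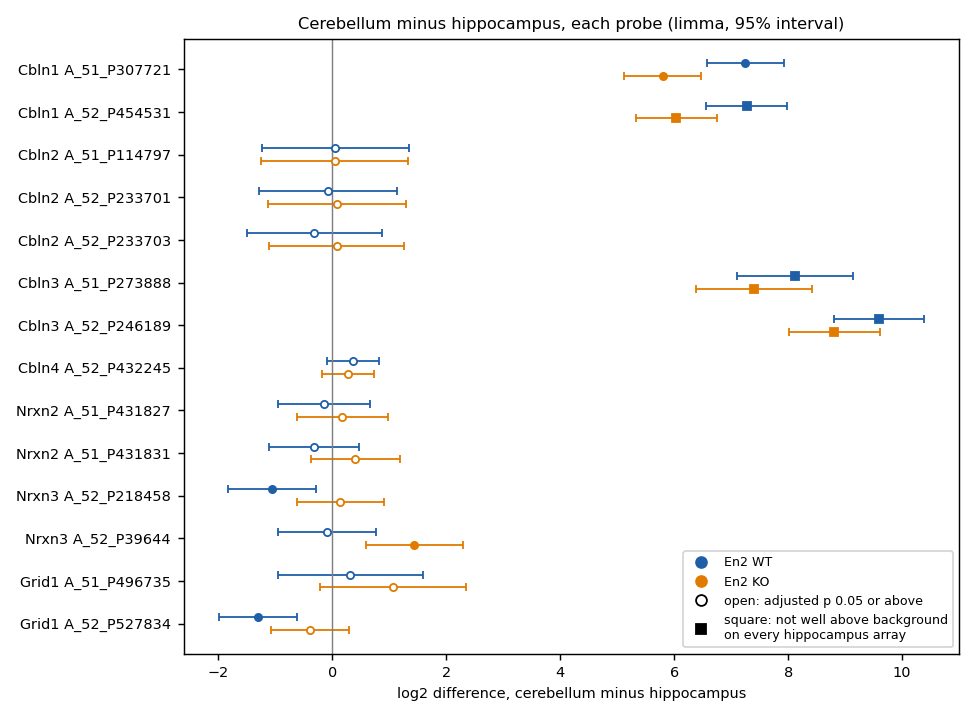
Log2 difference, cerebellum minus hippocampus, of each of the 14 probes in WT and *En2*-/- mice with its 95% interval from limma; filled symbols have an adjusted p under 0.05 and squares mark probes dim on at least 1 hippocampus array. *Cbln1* A_51_P307721 lies at 7.25 and 5.80, the squares of *Cbln3* and *Cbln1* A_52_P454531 are set against signals near background, and the other probes lie between -1.31 and 1.44.

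In the cerebellum of *En2*-/- mice no member probe was called. By limma 0 of 14 probes passed, where 0.941% of all probes passed. At an unadjusted limma p under 0.05 there was 1 of 14, against 2606 of all 27420 probes tested. The rank product called 0 of 14 at its limit, against 4.56% of all probes. One probe had groups that did not overlap, against 13.7% of all probes. The member median difference was -0.03 and that of all probes tested was -0.0040.

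*Cbln1* lay lower on average in *En2*-/- cerebellum with both probes, without passing a threshold. Probe A_52_P454531 read 12.73, 12.31 and 11.95 in WT and 11.21, 11.94 and 11.76 in *En2*-/- cerebellum, the groups just failing to overlap. Its difference was -0.70 (95% interval -1.41 to 0.01, limma adjusted p = 0.536), and the within-slide differences were -1.52, -0.37 and -0.20. The rank product P for this probe was 0.0319, and it was called lower, with P between 0.00553 and 0.00578, from the authors' log2 values and with the other background corrections. Probe A_51_P307721 differed by -0.35 (95% interval -1.03 to 0.32, limma adjusted p = 0.815). *Cbln3* differed by -0.39 with A_51_P273888 and by -0.28 with A_52_P246189 (limma adjusted p = 0.887 and 0.895). Beside these, the mean of the 8 Purkinje neuron markers was 14.79 to 15.43 in WT and 14.58 to 14.78 in *En2*-/- cerebellum. Of their differences 1 of 8 was positive, with a median of -0.34 and 0 called. For the 8 markers of granule neurons, the cells that make Cbln1, the mean was 12.37 to 12.61 and 12.20 to 12.70. Here 5 of 8 differences were positive, with a median of 0.06. The rank product called 1 of them, *Fat2* (-0.82, limma adjusted p = 0.825), lower. The mean of the 8 choroid plexus markers was 10.52 to 10.74 in WT and 11.01 to 11.18 in *En2*-/- cerebellum, with 8 of 8 differences positive and 0 called. The mean of the 8 midbrain dopaminergic markers was 7.16 to 7.48 and 7.15 to 8.74, with 6 of 6 tested differences positive and *Slc6a3* (2.97) called higher by the rank product. The part of these markers in the *Cbln1* and *Nrxn3* values of the cerebellum was not tested.

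The *Nrxn3* probe A_52_P39644 was the one with an unadjusted limma p under 0.05 in the cerebellum. It was higher in *En2*-/- mice by 0.90 (SE 0.39, 95% interval 0.05 to 1.76, limma adjusted p = 0.493), and the within-slide differences were 1.31, 0.62 and 0.78. WT and *En2*-/- arrays overlapped, since WT array 3 at 10.86 lay above *En2*-/- array 1 at 10.71. The rank product P of 0.0120 missed the limit, and this probe was called higher under 6 of 18 alternatives, among them the authors' log2 values (P = 0.00184). Probe A_52_P218458 differed by 0.07 (95% interval -0.70 to 0.84). *Grid1*, *Cbln2*, *Cbln4* and *Nrxn2* differed by between -0.67 and 0.34, with limma adjusted p of at least 0.670. *Grid1* A_51_P496735, at -0.67, was called lower by the permutation P of the rank product without WT array 3 (-1.15, P = 0.00856) and without *En2*-/- array 2 (-1.05, P = 0.00678).

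In the hippocampus of *En2*-/- mice the rank product called *Cbln1* higher and *Nrxn3* and *Grid1* lower, with 1 probe each, and limma called none. These were 3 of the 11 probes tested, where 4.29% of all probes were called. By limma 0 of 11 passed, where 1.15% of all probes passed. At an unadjusted limma p under 0.05 there were 4 of 11, against 4044 of all 25668 probes tested. Of the 11 probes 4 had groups that did not overlap, against 27.8% of all probes. The member median difference was -0.46 and that of all probes tested was 0.02. The 3 other probes, of *Cbln3* and *Cbln1* A_52_P454531, were too dim there to be tested. When calls were made instead at a false prediction rate under 0.05, 0 of the 3 remained.

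*Cbln1* A_51_P307721 was above every WT array in *En2*-/- hippocampus, with 10.16 the lowest *En2*-/- value against 10.13 the highest WT value. The difference was 1.10 (SE 0.31, 95% interval 0.42 to 1.77), or 2.14-fold, with rank product permutation P = 0.00296, a false prediction rate of 0.195, and limma adjusted p = 0.133. Within slides it was 1.07, 1.40 and 0.82. By the permutation P, the call was lost without WT array 1 (0.80, P = 0.0227), without *En2*-/- array 2 (0.88, P = 0.0230), without *En2*-/- array 3 (1.01, P = 0.0132) and with no filter on dim probes (P = 0.00948). Probe A_52_P454531, near background in the hippocampus, read 4.72, 5.06 and 5.40 in WT and 4.92, 5.94 and 5.93 in *En2*-/- mice, a difference in means of 0.54 that was not tested.

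Marker lists were set beside the *Cbln1* value in the hippocampus, with 1 probe per gene. The lists were chosen with earlier results of these data known, so the thalamus values below are a description and not an independent result. On that basis 1.07% of all genes tested passed limma and 3.76% were called by the rank product. The mean of the 10 thalamus markers was 10.24 to 10.51 on the WT arrays and 10.96 to 11.43 on the *En2*-/- arrays, and 9 of the 10 had a positive difference, with a median of 0.82 beside 0.06 over all genes. Of these 1, *Synpo2* at 2.39 (SE 0.31, limma adjusted p = 0.00227), passed limma, and 2, *Synpo2* and *Tcf7l2* (1.39, limma adjusted p = 0.0563), were called by the rank product. Of 6 granule neuron markers tested 3 had a positive difference, with a median of 0.07, and 1, *Zic1* (1.24, limma adjusted p = 0.0681), was called higher by the rank product. Of 7 Purkinje neuron markers tested 4 had a positive difference, with a median of 0.0027 and 0 called. The mean of the 8 Purkinje neuron markers was 10.66 to 10.99 on WT and 11.02 to 11.31 on *En2*-/- arrays, without overlap. This mean includes the untested *Ppp1r17*, near background, which averaged 3.59 on WT and 5.38 on *En2*-/- arrays, so the separation rests in large part on a dim probe. The mean of the 8 hippocampal neuron markers was 12.54 to 12.77 on WT and 12.24 to 12.35 on *En2*-/- arrays, with 0 called. The mean of the 8 choroid plexus markers was 10.98 to 12.14 and 8.93 to 12.77, and the rank product called *Ttr* (-1.26) and *Prlr* (-1.05) lower. Of 5 midbrain dopaminergic markers tested 4 had a positive difference, with a median of 0.62 and 0 called. The mean of the 8 markers of this list was 6.29 to 6.45 on WT and 6.40 to 6.63 on *En2*-/- arrays. Some granule and Purkinje neuron markers were too dim in the hippocampus to be tested. The granule cell marker *Gabra6* was well above background on 0 of 3 WT and 1 of 3 *En2*-/- hippocampus arrays. *Fat2* was so on 0 of 3 and 0 of 3, and the Purkinje neuron marker *Ppp1r17* on 0 of 3 and 2 of 3. Both *Cbln3* probes were well above background on none. The part of these markers in the *Cbln1* value was not tested.

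**Figure D3:**
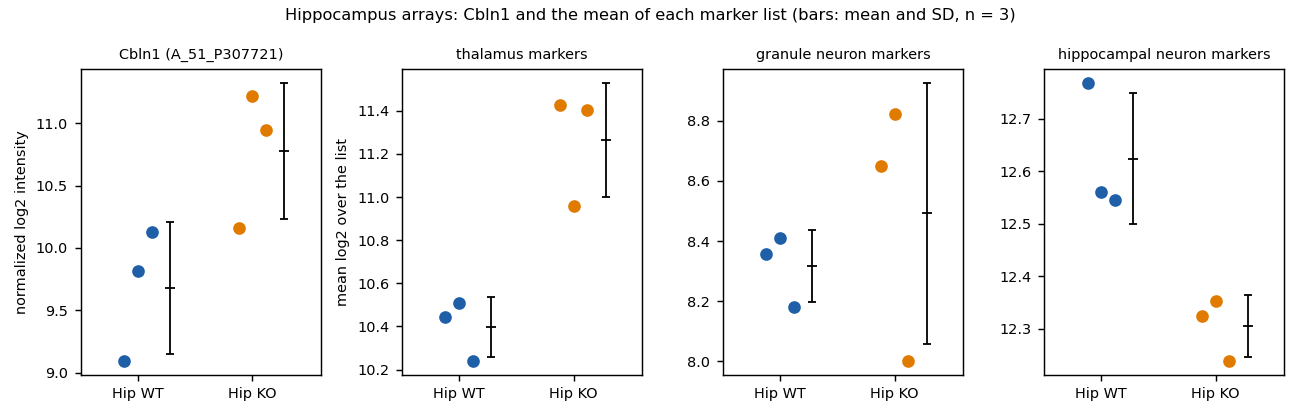
Hippocampus arrays by genotype: normalized log2 intensity of *Cbln1* A_51_P307721 (left) and the mean log2 intensity over the thalamus, granule neuron and hippocampal neuron marker lists, with the mean and SD of 3 arrays beside the points and a scale of its own in each panel. The genotypes do not overlap for *Cbln1*, the thalamus list and the hippocampal neuron list, and overlap for the granule neuron list. The lists were chosen with earlier results of these data known, and the granule neuron mean includes *Gabra6* and *Fat2*, which were dim in the hippocampus.

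*Nrxn3* A_52_P218458 read 7.81, 7.34 and 7.74 in WT and 7.12, 6.46 and 5.92 in *En2*-/- hippocampus, without overlap. The difference was -1.13 (SE 0.35, 95% interval -1.90 to -0.36), or 2.19-fold lower in *En2*-/- mice, with rank product permutation P = 0.00296 and limma adjusted p = 0.172. Within slides it was -0.69, -0.88 and -1.81. By the permutation P, this call was lost with the replicate block (P = 0.00521), from the authors' log2 values (-0.78, P = 0.00692), with normexp (-0.77, P = 0.00659), with the local background subtracted (-0.77, P = 0.00667), with no filter on dim probes (P = 0.00695), and without 5 of the 6 hippocampus arrays one at a time (between -0.84 and -1.27, P between 0.00514 and 0.0251), and it stayed without *En2*-/- array 1. Probe A_52_P39644 differed by -0.63 (95% interval -1.49 to 0.22, limma adjusted p = 0.432).

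*Grid1* was lower on average with both probes. Probe A_51_P496735 read 8.10, 6.45 and 6.97 in WT and 6.78, 5.33 and 5.12 in *En2*-/- hippocampus, with *En2*-/- array 1 above WT array 2. The difference was -1.43 (SE 0.58, 95% interval -2.70 to -0.15), or 2.69-fold lower, with rank product permutation P = 0.000734, a false prediction rate of 0.0910, and limma adjusted p = 0.276. Within slides it was -1.31, -1.13 and -1.84. By the permutation P, the call was lost without WT array 1 (-0.96, P = 0.0142), without *En2*-/- array 3 (-1.12, P = 0.00775) and from the authors' log2 values (-0.80, P = 0.00547). Probe A_52_P527834 differed by -0.97 (SE 0.31, 95% interval -1.65 to -0.28, limma adjusted p = 0.184) and its groups did not overlap, but its rank product P of 0.00777 missed the limit. With normexp its difference was -0.57.

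*Cbln4* was higher by 0.44 in *En2*-/- hippocampus (95% interval -0.02 to 0.89, limma adjusted p = 0.333) and its groups did not overlap, the lowest *En2*-/- array at 8.11 lying above the highest WT array at 7.99. The rank product did not call it (permutation P = 0.144). *Nrxn2* differed by -0.46 and -0.61 with its overlapping probes (limma adjusted p = 0.536 and 0.411), and slide 1 alone gave -1.83 and -1.96. The *Cbln2* probes differed by between -0.22 and 0.01 (limma adjusted p of at least 0.862).

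**Figure D4:**
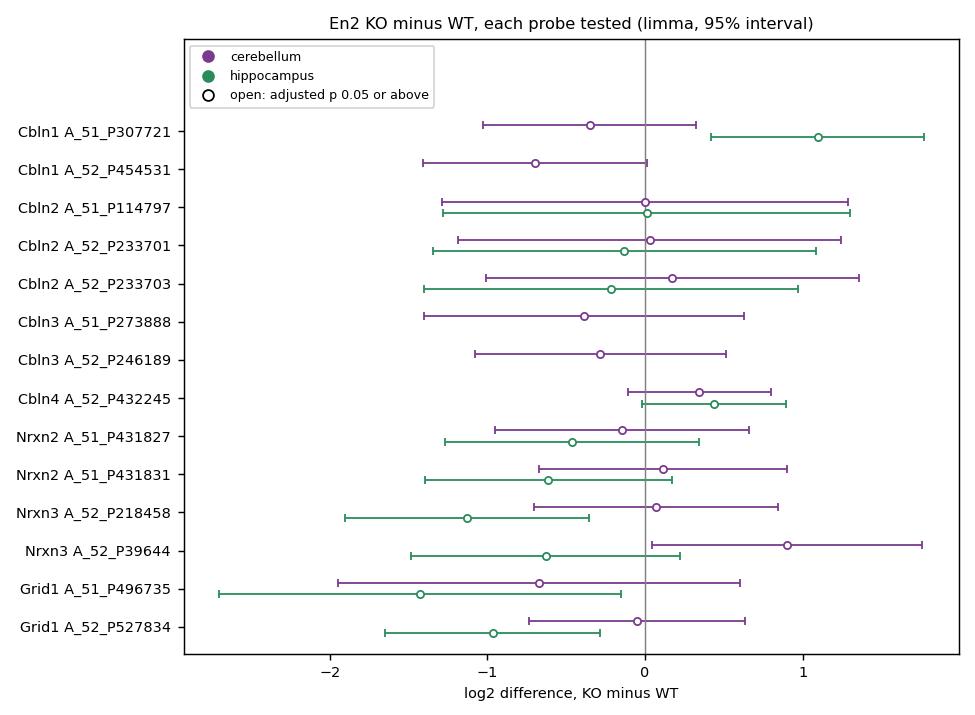
Log2 difference, *En2*-/- minus WT, of each probe tested in either tissue with its 95% interval from limma; open symbols have an adjusted p of 0.05 or above, and probes too dim in the hippocampus have no hippocampus symbol. Every symbol is open, and the intervals of *Cbln1* A_51_P307721, *Nrxn3* A_52_P218458 and both *Grid1* probes in the hippocampus and of *Nrxn3* A_52_P39644 in the cerebellum do not reach 0.

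**Figure D5:**
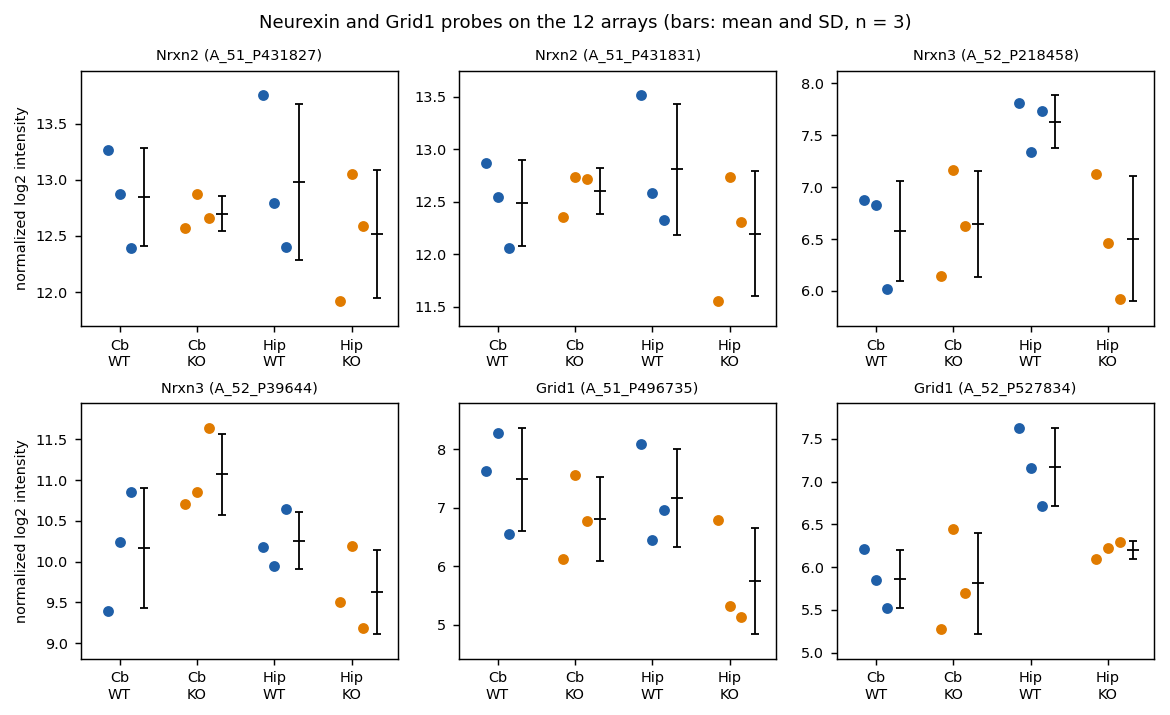
Normalized log2 intensity of the 6 neurexin and *Grid1* probes on each array, by tissue and genotype, with the mean and SD of 3 arrays beside the points and a scale of its own in each panel. *Nrxn3* A_52_P218458 and both *Grid1* probes average lower in *En2*-/- than in WT hippocampus, and the 4 groups overlap for *Nrxn2*.

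The change between genotypes was also compared between the tissues. By limma 0 of the 11 probes tested had a difference of changes past the threshold, where 0.0279% of all probes passed. At an unadjusted limma p under 0.05 there were 3 of 11, against 2741 of all 25098 probes tested. As the cerebellum change minus the hippocampus change, *Cbln1* A_51_P307721 gave -1.45 (SE 0.44, 95% interval -2.40 to -0.49, limma adjusted p = 0.361). *Nrxn3* A_52_P39644 gave 1.53 (0.32 to 2.74, limma adjusted p = 0.389) and A_52_P218458 gave 1.20 (0.11 to 2.29, limma adjusted p = 0.426). *Grid1* A_51_P496735, also called in the hippocampus, gave 0.75 (-1.05 to 2.56, limma adjusted p = 0.724). The rank product calls in the hippocampus are therefore not shown to differ from the cerebellum values.

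No partner in the 4 lists below was called between genotypes in either tissue by limma or the rank product, where, with 1 probe per gene, 0.958% of all genes passed limma and 4.53% were called by the rank product in the cerebellum. Of the 9 measured partners of cerebellins and GluD receptors 9 were tested in cerebellum and 8 in hippocampus, and limma and the rank product each called 0. The same held for 19 neurexins and neurexin partners, 9 cytoplasmic neurexin partners and the 3 splicing factors of neurexin splice site 4. Medians of the change in the cerebellum were 0.11, 0.19, 0.12 and -0.12 for the lists in this order, beside -0.03 over all genes, and in the hippocampus 0.0047, -0.0089, -0.13 and -0.09 beside 0.06. The neurexin partners ran from -0.85 to 0.31 in the hippocampus.

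Between regions, 29.5% of all genes passed limma in WT mice and 25% in *En2*-/- mice with 1 probe per gene. In WT mice, of the cerebellin and GluD partners 3 were higher and 4 lower in the cerebellum by limma, and the lowest was *C1ql2*, a related secreted C1q protein of hippocampal mossy fibres, at -3.88 (SE 0.42). Of the neurexin partners 2 were higher and 6 lower, from *Nxph4*, a neurexophilin, at 1.92 to *Lrrtm1*, a postsynaptic neurexin ligand, at -1.89. Of the cytoplasmic partners 2 were higher and 2 lower, from *Epb4.1* at 2.25 to *Lin7b* at -1.19. Among the splicing factors *Khdrbs3* was lower in the cerebellum, at -1.72 (SE 0.20, limma adjusted p = 5.12e-05), and *Khdrbs2* differed by 0.21 (limma adjusted p = 0.449). In *En2*-/- mice the lists had 3 higher and 2 lower, 3 higher and 4 lower, 2 higher and 2 lower, and 0 higher and 1 lower in this order, with *Lrrtm3*, another postsynaptic ligand, at 1.66 the highest of the neurexin partners and *Khdrbs1* at 0.26 the highest of the splicing factors.

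The genes whose values followed each member most closely over the 12 arrays were found by Pearson correlation among 27309 probes, as a description, since points share tissue. For *Cbln1* these were *Slc1a6* and 6430573F11Rik (r = 0.995 and 0.994), and for *Cbln3* *Psd2* and 6430573F11Rik (r = 0.996 and 0.995). They were *Evl* and *Cttnbp2nl* for *Cbln2* (r = 0.93 and 0.90) and *Zfp367* and *Chrdl2* for *Cbln4* (r = 0.89 for both). For *Nrxn2* they were TC1602638 and *Pcdhb6* (r = 0.93 for both), for *Nrxn3* A_52_P39644 *Prrc2c* and *Mga* (r = 0.95 and 0.94), and for *Grid1* A_51_P496735 *Snx33* and *Peo1* (r = 0.92 for both). With tissue means subtracted, *Cbln1* was closest to an unnamed Ensembl transcript, *Myl3* and 4930538K18Rik (r = 0.93, 0.92 and 0.91). On that scale *Nrxn3* A_52_P39644 was closest to C78859, *Clip1* and *Wdfy1* (r between 0.94 and 0.95), and *Grid1* A_51_P496735 to *Map2k1*, *Tanc1* and *Gtf2i* (r between 0.93 and 0.95).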

How the data were processed

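The authors deposited, for each of the 12 arrays, spot intensity on a linear scale from Agilent Feature Extraction 10.7.3.1, corrected for background within the array, with local background and quality flags. Per the methods, low-quality probes were then removed with Agi4x44PreProcess and signals quantile normalized. The log2 table deposited by the authors appeared to be normalized separately for each tissue, so it was used within a tissue only.

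The processed intensity was taken to log2, outlier-flagged spots were set to missing, values were quantile normalized over the 12 arrays and spots of a probe averaged. Testing a probe required that all 3 arrays of 1 or more of the groups compared flagged it as well above background, with at least 2 values per group. limma 3.58.1 in R 4.3.3 was fitted to 4 group means over the 12 arrays, which share one spread. The rank product, written in Python 3.11.15 (pandas 2.3.3, numpy 2.4.6; exact tests in scipy 1.17.1), ranked 9 ratios per tissue with 100 permutations, and a missing value was filled with its group mean. Figures used matplotlib 3.10.9. On simulated cerebellum arrays limma called 30 of 100 probes changed 2-fold, with 6 false calls among 27220, and the rank product 69 of 100, with 925 false calls. The precision rests on the number of arrays, and an exact test that permutes 3 against 3 arrays cannot give a p under 0.1.

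Groups came from the sample titles. Replicate numbers coincide with slides and scans in the file headers. Labels do not number the mice, so the p-values of limma and of the exact tests measure the spread between these arrays. The rank product permuted probe values within each array, so its P sets a probe against the other probes and does not measure that spread. Lists were described by 1 probe per gene, the one with the highest mean. The members, lists and the rule for named genes (each member with each probe, *En2*, partners and markers called or at the extremes of their list, and the genes with the closest pattern) were chosen with earlier results of these data known. Alternatives were the normalization, background correction (offset 50), filters, 1 probe per gene, outlier spots kept, the arrays in the fit, blocks, the rank product limits and leaving out each array. Some partner genes named by this rule are not reported here.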

Additional observations from a re-analysis of the deposited data

How the results depend on the processing

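No member probe passed limma for KO against WT, or for the difference of that change between tissues, under any alternative run, and no called difference changed sign. The region counts fell when a probe had to be well above background on every array compared, to 3 of 11 probes from 6 of 14 in WT mice and to 2 of 11 from 5 of 14 in *En2*-/- mice (25.6% and 21.9% of all such probes), because the dim *Cbln3* and *Cbln1* probes then leave the test. With 1 probe per gene 2 genes differed between regions in WT mice in place of 4, *Nrxn3* and *Grid1* being represented by their other probe. In the cerebellum the rank product called 0 probes, but 2 with normexp, 2 with the local background subtracted with a floor, 2 from the authors' log2 values, 1 when a probe had to be well above background on every array and 1 with 1 probe per gene; leaving out each array gave between 0 and 2. In the hippocampus it called 3 probes, but 0 by the percentage of false prediction, 1 from the authors' log2 values and 1 with no filter on dim probes, and leaving out each array gave between 0 and 3. The causes of these shifts other than those named were not tested.

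Deviations of same-numbered arrays from their group means correlated between -0.21 and 0.39 over 18 pairs (KO and WT of a tissue, between -0.13 and 0.09), so same-numbered arrays, which share a slide, were not seen to deviate together. With the replicate block, which is the slide, limma called 0 member probes in each KO against WT comparison and 0 for the difference between tissues, and 6 and 5 between regions, and the rank product 0 in the cerebellum and 2 in the hippocampus, where *Nrxn3* A_52_P218458 lost its call. The authors' values, normalized within a tissue, could not be used between regions. Over all probes the count called by limma for the difference between tissues, 7, ranged from 0 to 30, that for the hippocampus, 295, from 163 to 544, and that for the cerebellum, 258, from 153 to 410. The percentage of false prediction left 274 rank product calls in the cerebellum in place of 1249 and 315 in the hippocampus in place of 1102, where 1 probe per gene gave 712.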
